A study of Mus musculus with 4 samples.

Results

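Described here are 7 genes of mouse bone marrow-derived macrophages, Penk, Mmp12, Ccl8, Itga9, Tns1, Enpp4 and Pilrb1, out of 19938 genes with a probeset of 1 gene symbol on the array. They were picked by measured values, because each moved at least 2-fold in 1 direction with the cytokine IL-4 in Stat6-/- cells and again in wild-type cells. Their IL-4 differences are therefore a description of the choice and carry no test. The 7 symbols were all found, and where a gene has several probesets the brightest on average was taken.

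The arrays held 4 groups of 1 sample each: Stat6-/- macrophages with IL-4, Stat6-/- macrophages in medium, wild-type macrophages with IL-4 and wild-type macrophages in medium. The Stat6-/- cells came from mice of the strain labelled 4get/Stat6-/-, where 4get is a reporter of Il4 transcription, and the wild type was BALB/c, for which the labels name no reporter. A genotype difference here therefore also holds any difference between the strains, and these cannot be told apart. All cells were grown from bone marrow for 7 days with 10% supernatant of L929 fibroblasts, a source of M-CSF, then replated, cultured for 24 h with or without IL-4 and sorted for the macrophage surface protein that Adgre1 encodes. The sample labels put IL-4 at 10 µg/mL, while the design text has 10 mg/mL, and the labels do not settle which was meant. The number of animals behind an array is not given.

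Values are log2 signals from RMA, a method that corrects background, equalises the arrays and combines the probes of a probeset. A gene counted as higher or lower when the log2 difference reached 1, a 2-fold change, and the higher of both signals reached a floor of 2.52, the median of all single-gene probesets. With 1 array per group there is no replicate check and no p-value, and precision is limited by how few arrays there are. Signals of different probesets are not comparable as levels, so each gene is compared with itself across arrays. In bulk RNA, fewer cells of a type and less RNA per cell cannot be told apart.

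IL-4 binds a receptor built on the Il4ra chain, whose Janus kinases phosphorylate the transcription factor Stat6. Stat6 then enters the nucleus and turns on the genes of alternatively activated macrophages, such as Arg1 and Retnla. The same receptor can also engage insulin receptor substrate proteins and phosphoinositide 3-kinase, a route that does not need Stat6.

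Stat6 itself, the targeted gene, had signals of 4.25 with IL-4 and 4.54 in medium in Stat6-/- cells, against 6.68 with IL-4 and 7.34 in medium in wild-type cells. It was thus lower on both Stat6-/- arrays, 5.40-fold with IL-4 and 6.98-fold in medium, and where its probes lie relative to the deletion is not known here. The 3 defining macrophage markers Adgre1, Csf1r and Cd68 had signals between 9.54 and 10.87 on the 4 arrays. All 10 macrophage markers were above the floor on every array, with summed linear signals of 10201 (Stat6-/-, IL-4), 10261 (Stat6-/-, medium), 7718 (wild type, IL-4) and 11301 (wild type, medium). With IL-4, 0 of these 10 changed in Stat6-/- cells. In wild-type cells, where 6.78% of all genes were lower, 4 of 10 were lower, Adgre1 among them at 9.54 with IL-4 and 10.75 in medium. None of the NK cell, mast cell and basophil, or erythroid markers on the array reached the floor. The T cell gene Cd3e stayed between 2.44 and 2.70, and 5 of 8 fibroblast markers reached the floor on some array. Periostin (Postn), a fibroblast marker, was at 1.72 with IL-4 and 1.79 in medium in Stat6-/- cells and at 3.55 and 1.72 in wild-type cells. Only its signal of 3.55 was above the floor, so its wild-type fold is at least 2.04. The other fibroblast markers with a signal were short of 2-fold in wild-type cells. Col1a1, Col1a2, Col3a1 and Thy1 had IL-4 differences there of 0.14, 0.20, 0.03 and -0.08.

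Across all genes, 25 of 10410 (0.24%) were higher and 12 (0.115%) lower with IL-4 in Stat6-/- cells, against 304 of 10282 (2.96%) higher and 697 (6.78%) lower in wild-type cells. Of the 9894 genes with a signal in both comparisons, 6 (0.0606%) were higher and 4 (0.0404%) lower in both. Penk, Mmp12 and Ccl8 make up 3 of those 6, and Itga9, Tns1, Enpp4 and Pilrb1 are the 4. These counts were used in choosing the genes. Because so few genes were called in Stat6-/- cells, a count of 0 in a short list of genes there is near the background. Counts in wild-type cells given below are to be read beside the shares of 2.96% higher and 6.78% lower. Quantile normalization applied again moved the median difference of all genes in wild type from -0.11 to 0.02 and the split there to 403 higher and 488 lower. With a trend over signal intensity removed the split was 408 and 501, and with a gene length trend removed as well it was 406 and 470. Of core Stat6-dependent genes with a signal, 0 of 6 changed in Stat6-/- cells, against 10 of 11 higher in wild-type cells. Arg1 was at 1.69 with IL-4 and 1.63 in medium in Stat6-/- cells, against 8.60 and 1.64 in wild-type cells.

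**Figure D1:**
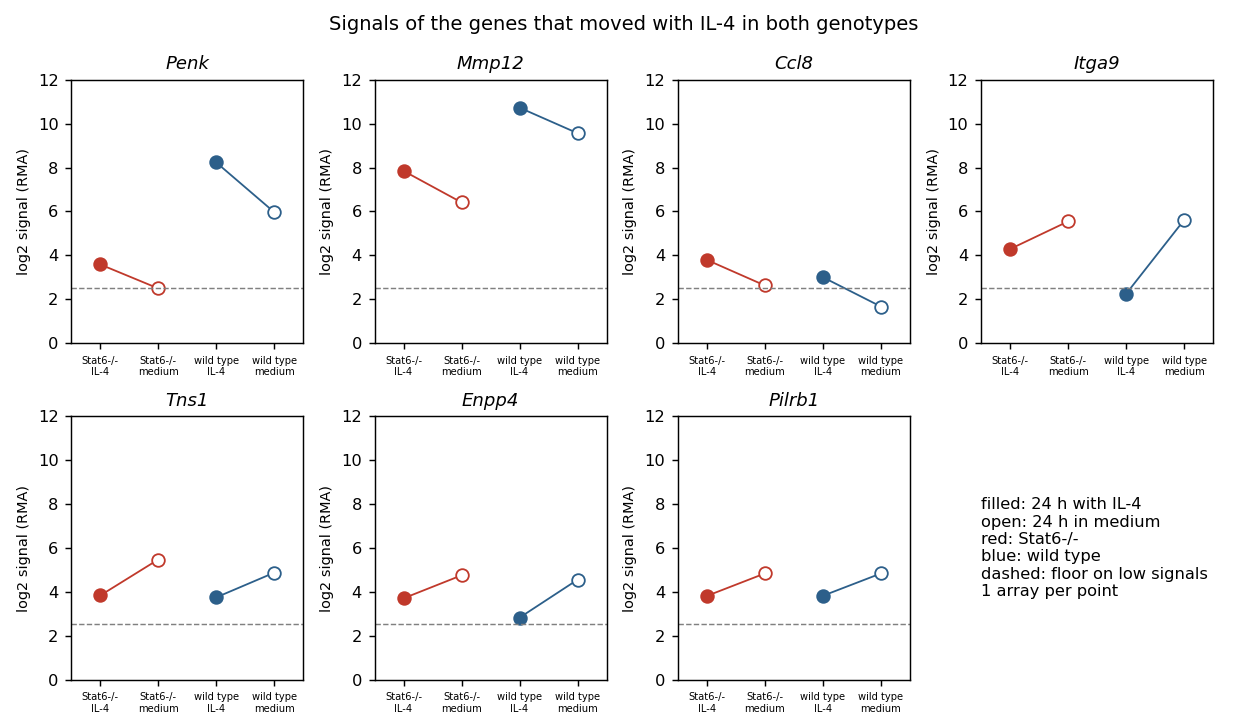
Log2 RMA signal (vertical axis) of each of the 7 genes on the 4 arrays, with Stat6-/- arrays in red left of wild-type arrays in blue, IL-4 filled and medium open, 1 array per point. Lines join the 2 arrays of a genotype, and the dashed line is the floor of 2.52. Penk, Mmp12 and Ccl8 slope down to medium in both genotypes and the other 4 genes slope up, while the level of Penk and Mmp12 is set lower on both Stat6-/- arrays.

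The stretch around the transcription start was read for the genes, since they moved with IL-4 in both genotypes, and 4 examples are shown because they differ in base composition and in the short motifs they hold. The windows run from 250 bases before to 50 after an annotated start and are from RefSeq, build GRCm38.p6. Of the 7 genes, 6 had at least 1 window, Mmp12 had 2, and Penk had none in the table used. Capitals mark motif matches, and Enpp4 has none.
Mmp12, chr9:7347124-7347423, plus strand, second window: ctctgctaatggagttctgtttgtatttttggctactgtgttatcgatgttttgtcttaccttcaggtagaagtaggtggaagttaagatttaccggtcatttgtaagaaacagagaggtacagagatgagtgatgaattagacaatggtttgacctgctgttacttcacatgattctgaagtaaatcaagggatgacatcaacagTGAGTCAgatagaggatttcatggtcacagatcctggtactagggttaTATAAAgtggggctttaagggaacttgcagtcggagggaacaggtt
Ccl8, chr11:82114935-82115234, plus strand: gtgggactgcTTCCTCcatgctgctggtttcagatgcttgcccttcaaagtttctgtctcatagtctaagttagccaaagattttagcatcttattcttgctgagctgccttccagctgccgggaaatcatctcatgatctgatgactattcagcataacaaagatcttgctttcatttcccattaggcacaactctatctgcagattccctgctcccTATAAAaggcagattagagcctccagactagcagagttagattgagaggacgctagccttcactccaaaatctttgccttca
Itga9, chr9:118711442-118711741, plus strand: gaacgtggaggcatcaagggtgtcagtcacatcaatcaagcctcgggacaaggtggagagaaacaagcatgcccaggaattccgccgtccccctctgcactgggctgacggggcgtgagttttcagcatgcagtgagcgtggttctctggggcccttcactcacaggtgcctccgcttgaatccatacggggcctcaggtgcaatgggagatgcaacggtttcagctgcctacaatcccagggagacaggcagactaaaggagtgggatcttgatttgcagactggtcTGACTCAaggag
Enpp4, chr17:44105760-44106059, minus strand: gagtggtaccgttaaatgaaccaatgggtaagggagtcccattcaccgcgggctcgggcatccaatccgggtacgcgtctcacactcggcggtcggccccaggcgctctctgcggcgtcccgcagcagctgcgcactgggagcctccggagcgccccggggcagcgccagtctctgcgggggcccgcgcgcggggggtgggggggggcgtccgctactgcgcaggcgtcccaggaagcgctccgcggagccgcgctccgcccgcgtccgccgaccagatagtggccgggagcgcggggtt

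The motif bound by Stat6, TTCNNNNGAA on either strand, was in 0 of the 7 windows of the 6 genes, against 6.95% of 32851 windows of all genes. The related STAT motif with 3 bases in its middle, TTCNNNGAA, was also in 0 of 7, against 8.30%. With shares this low, a count of 0 in so few windows is near the background. Sequence outside the windows was not read. The AP-1 motif TGANTCA on either strand was at base 207 of the second Mmp12 window and at base 289 of the Itga9 window, and 7.81% of all windows hold it. The core bound by PU.1, a factor of macrophage identity, is GAGGAA on either strand and was in the first Mmp12 window and at base 11 of the Ccl8 window, against 28.3% of all. The TATA box TATAAA, read on the gene's strand, was at base 255 of the second Mmp12 window and base 219 of the Ccl8 window, against 8.32% of all. With 250 bases before the start in a window, bases 255 and 289 lie after the annotated start. The other bases given lie before it. The matches did not overlap each other in these windows. Of the genes that rose, only Mmp12 and Ccl8 had windows. Their 3 windows had GC contents between 38.7% and 44.7% and at most 3 CpG pairs. Of the genes that fell, Enpp4 had 73.7% and 41 pairs, Tns1 75.7% and 37, and Itga9 56.7% and 10. Pilrb1, which also fell, had 50% and 1 pair, so the genes that fell were not all rich in CpG pairs. The median over all windows was 52.7% and 7. A match here is a run of letters, and binding was not measured.

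Of the genes that rose, Penk encodes proenkephalin, the precursor from which opioid enkephalin peptides are cut. It had signals of 3.59 with IL-4 and 2.49 in medium in Stat6-/- cells. In wild-type cells it had signals of 8.23 with IL-4 and 5.96 in medium. Both Stat6-/- arrays were lower than either wild-type array, and in each genotype the IL-4 array was the higher one. Its IL-4 difference was 1.09 in Stat6-/- cells, where the medium signal was just under the floor and the fold is at least 2.09, against 2.27 or 4.81-fold in wild-type cells. Among all genes with a signal, its IL-4 difference ranked 24 of 10410 by size in Stat6-/- cells and 87 of 10282 in wild-type cells.

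Little else of the opioid system had a signal. Of the other precursors, Pdyn, the prodynorphin gene, lay between 2.09 and 2.62, while Pomc and Pnoc were under the floor on the 4 arrays. Of 4 opioid receptors, Oprd1, the delta receptor that enkephalins bind, was at 3.19 with IL-4 and 2.94 in medium in Stat6-/- cells and at 2.68 and 2.61 in wild-type cells, and the other 3 stayed under the floor. Of 8 genes for prohormone processing and enkephalin breakdown on the array, 4 had a signal. Among these, 0 changed with IL-4 in Stat6-/- cells, against 1 in wild-type cells, Anpep, an aminopeptidase that cleaves enkephalins. Anpep had a signal of 8.26 with IL-4 and 7.98 in medium in Stat6-/- cells, against 9.36 and 8.27 in wild-type cells. The convertase gene Pcsk1, which cuts proenkephalin in neuroendocrine cells, and Cpe, which trims the peptides, were under the floor.

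Mmp12 encodes macrophage elastase, a secreted metalloproteinase that degrades elastin. It had signals of 7.85 with IL-4 and 6.41 in medium in Stat6-/- cells. In wild-type cells they were 10.73 with IL-4 and 9.56 in medium. The order of the arrays was the same as for Penk, with both Stat6-/- arrays lowest and IL-4 above medium within each genotype. This IL-4 difference was 1.44 or 2.71-fold in Stat6-/- cells, rank 5 of 10410, against 1.16 or 2.24-fold in wild-type cells, rank 669 of 10282.

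Of 22 matrix metalloproteinase genes on the array, 9 had a signal. With IL-4, 1 of these 9, Mmp12, was higher and 0 lower in Stat6-/- cells, against 3 higher (Mmp8, Mmp9 and Mmp12) and 2 lower (Mmp14 and Mmp27) in wild-type cells. The Mmp12 calls were fixed by the choice of genes. Mmp27 was under the floor with IL-4 in wild-type cells, so its fold there is at least 1.90-fold lower. The median difference was 0.08 in Stat6-/- cells, against -0.05 for all genes, and 0.97 in wild-type cells, against -0.11 for all genes. The gelatinase gene Mmp9 had a signal of 3.77 with IL-4 and 4.70 in medium in Stat6-/- cells and of 8.74 and 6.01 in wild-type cells. Mmp13, a collagenase gene next to Mmp12 in the RefSeq order, had differences of 0.56 in Stat6-/- cells and 0.90 in wild-type cells, short of 2-fold in both. Of the inhibitors, Timp1 had a difference of -0.16 in Stat6-/- cells and 1.42 in wild-type cells, where its medium signal of 2.43 was under the floor, and Timp2 one of 0.18 and 0.22. Of 6 markers of osteoclasts, a cell type known for matrix breakdown, 4 had a signal. Summed linear signals of the 6 were 49.8 with IL-4 and 42.1 in medium in Stat6-/- cells, against 247.2 and 76.8 in wild-type cells. Such sums add probesets whose signals are not comparable as levels, so they are compared only across arrays. The wild-type rise was mostly in Dcstamp, at 6.90 with IL-4 and 3.10 in medium, and Ocstamp, at 5.66 and 2.43. Acp5 and Ctsk had wild-type differences of 0.21 and 0.75, short of 2-fold. The part of osteoclasts in the Mmp12 result was not tested.

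Ccl8 encodes a CC chemokine, a secreted attractant that in mice acts on the receptor Ccr8. It had signals of 3.79 with IL-4 and 2.63 in medium in Stat6-/- cells. In wild-type cells the signals were 3.005 with IL-4 and 1.67 in medium, the last under the floor. The highest array was Stat6-/- with IL-4 and the lowest was wild type in medium. With IL-4 the difference was 1.16 or 2.24-fold in Stat6-/- cells, against 1.34 in wild-type cells. Against the floor the wild-type fold is at least 1.40, which lies under the 2-fold rule, and with signals raised to the floor the wild-type difference was 0.48.

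Of 6 chemokine genes of the cluster that holds Ccl8, 4 had a signal. In Stat6-/- cells 1 of 4 passed 2-fold with IL-4, Ccl8, against 2 of 3 tested in wild-type cells, Ccl8 and Ccl7. The Ccl8 calls were fixed by the choice of genes. Ccl7, a monocyte attractant, had a difference of 0.61 in Stat6-/- cells and 1.01 in wild-type cells, and Ccl2, its best-known relative, one of 0.85 and 0.55. Ccl12, which lies beside Ccl8, was at 3.38 both with IL-4 and in medium in Stat6-/- cells, against 2.37 and 2.24 in wild-type cells. Of the listed receptors, Ccr8 was under the floor on the 4 arrays, and 0 of the 3 with a signal (Ccr1, Ccr2 and Ccr3) changed with IL-4 in either genotype.

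**Figure D2:**
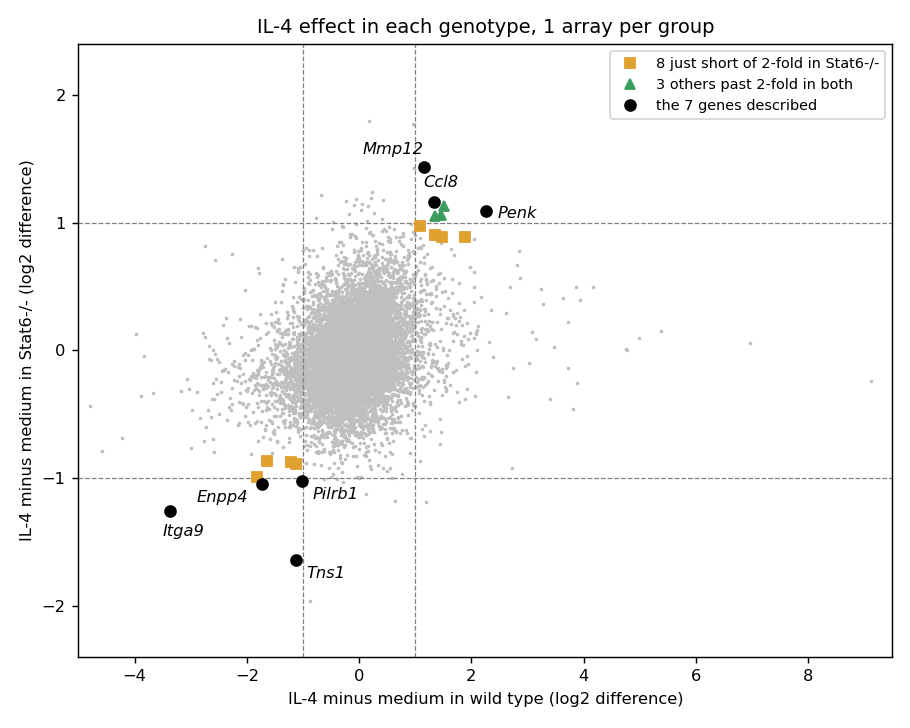
IL-4 minus medium in wild-type cells (horizontal axis) and in Stat6-/- cells (vertical axis) as log2 differences, with 1 grey point for each gene above the floor on at least 1 array and dashed lines at 2-fold. The 7 genes (black) lie in the upper right and lower left corners, beside 3 other genes that also passed 2-fold in both genotypes (green) and 8 that fell just short in Stat6-/- cells (orange).

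Of the genes that fell, Itga9 encodes the integrin alpha9 chain, which pairs with beta1 to bind matrix proteins such as tenascin and an alternatively spliced form of fibronectin. It had signals of 4.29 with IL-4 and 5.55 in medium in Stat6-/- cells. In wild-type cells they were 2.25 with IL-4, under the floor, and 5.62 in medium. The medium arrays of both genotypes were nearly equal, and the IL-4 array of wild type was the lowest. The IL-4 difference was -1.26 in Stat6-/- cells, 2.39-fold lower, against -3.37 in wild-type cells, where the fold is at least 8.53-fold lower.

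Of 10 integrin alpha chains tested in Stat6-/- cells, 1 fell with IL-4, Itga9, and 0 rose. The Itga9 calls in both genotypes were fixed by the choice of genes. In wild-type cells 3 of 10 tested fell (Itga9, Itga4 and Itga6) and 2 rose (Itgax and Itga1, with Itga1 in medium at 1.65, under the floor, so that its fold is at least 1.12). The median was -0.15 in Stat6-/- cells and -0.55 in wild-type cells. The partner chain Itgb1 was lower with IL-4 in both genotypes but short of 2-fold. Its signals were 8.22 with IL-4 and 8.34 in medium in Stat6-/- cells, and 8.26 and 8.77 in wild-type cells. Of 5 genes on the array for ligands of the alpha9 beta1 integrin, Fn1 (fibronectin) and Vcam1, a cell surface ligand, rose in wild-type cells, by 2.81 and 1.67. In Stat6-/- cells their differences were 0.67 and 0.27. Tnc, the tenascin C gene, and Svep1 were under the floor. The T cell gene Cd28 had its low array in common with Itga9, at 5.996 with IL-4 and 6.43 in medium in Stat6-/- cells and at 1.31 and 6.10 in wild-type cells. Of the 7 T cell markers on the array, 2 reached the floor, Cd28 and Cd3e. Cd3e, which stayed near the floor, had IL-4 differences of -0.19 in Stat6-/- cells and 0.08 in wild-type cells. It thus did not share the low array of Cd28. The part of T cells in the Itga9 result was not tested.

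Tns1 encodes tensin 1, which ties the cytoplasmic tails of integrins to actin at adhesions. Its probeset had signals of 3.84 with IL-4 and 5.48 in medium in Stat6-/- cells. In wild-type cells they were 3.76 with IL-4 and 4.88 in medium. The IL-4 arrays of both genotypes were the low ones and lay close together. For this probeset the IL-4 difference was -1.64 in Stat6-/- cells, rank 4 of 10410, against -1.13 in wild-type cells, rank 729 of 10282.

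Tns1 has 6 probesets of 1 symbol on the array, and the other 5 did not show this change. Their IL-4 differences ran from -0.54 to 0.16 in Stat6-/- cells and from -0.50 to 0.20 in wild-type cells, and 0 of 5 passed 2-fold in either. With the mean of all probesets the difference of Tns1 was -0.41 in Stat6-/- cells and -0.31 in wild-type cells. In wild-type cells the probeset used was also short of 2-fold at -0.94 after quantile normalization applied again and at -0.98 with the intensity trend removed. The Tns1 result thus rests on 1 probeset, and which transcripts the others read was not tested.

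**Figure D3:**
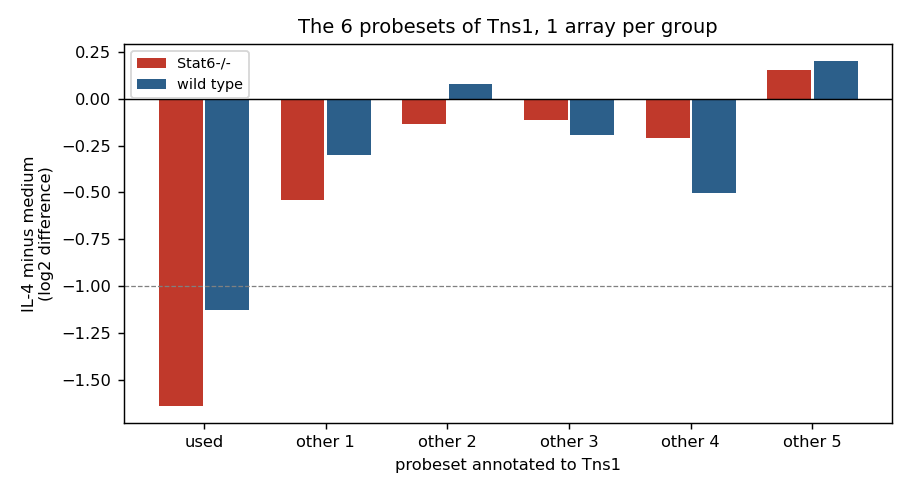
IL-4 minus medium as log2 differences (vertical axis) for the 6 probesets annotated to Tns1, with Stat6-/- in red left of wild type in blue and the dashed line at 2-fold lower. The probeset used reaches -1.64 and -1.13, and the other 5 lie between -0.54 and 0.20.

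Other genes of focal adhesions were also measured. Tns3, a second tensin, had differences of 0.38 in Stat6-/- cells and 0.48 in wild-type cells, and Tns2 and Tns4 were under the floor. Of 16 focal adhesion genes with a signal, 0 changed with IL-4 in Stat6-/- cells, where 0.24% of all genes rose and 0.115% fell. In wild-type cells, where 2.96% of all genes rose and 6.78% fell, 2 of 15 rose and 0 fell. These were Zyx (zyxin) and Actn1 (alpha-actinin), with differences of 1.64 and 1.62 in wild-type cells, and of 0.21 and 0.32 in Stat6-/- cells.

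Enpp4 encodes a membrane phosphodiesterase, which in humans cleaves dinucleotides released from platelets. It had signals of 3.71 with IL-4 and 4.76 in medium in Stat6-/- cells. In wild-type cells they were 2.83 with IL-4 and 4.56 in medium. Both medium arrays were above both IL-4 arrays. Enpp4 had an IL-4 difference of -1.05 or 2.07-fold lower in Stat6-/- cells, against -1.73 or 3.32-fold lower in wild-type cells. It was the 1 gene of 5 Enpp family members on the array with a signal above the floor. With a floor at the 75th percentile, 4.65, the wild-type difference of Enpp4 no longer counted.

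Pilrb1 encodes an activating paired immunoglobulin-like receptor, which signals through the adaptor Tyrobp. It had signals of 3.82 with IL-4 and 4.85 in medium in Stat6-/- cells. In wild-type cells they were 3.83 with IL-4 and 4.85 in medium. The genotypes could not be separated by these values, and the deposited medium values were identical, as they were for 28 of 10798 genes with a signal. The IL-4 difference was -1.02 in both genotypes, 2.03-fold lower in each, just past the threshold. It was short of 2-fold in wild-type cells in 3 of 10 alternatives, at -0.83 after quantile normalization applied again, -0.87 with the intensity trend removed and -0.93 with the length trend removed too. In Stat6-/- cells it was at -0.99 with the intensity trend removed.

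Relatives and partners of Pilrb1 were also measured. Pilrb2, a neighbouring and closely related receptor gene so that signals of both are uncertain where probes match either, was at 2.39 with IL-4 and 2.34 in medium in Stat6-/- cells, under the floor, and at 1.86 and 2.93 in wild-type cells, where the fold is at least 1.32-fold lower. Of the Pilr receptors, adaptors and ligands, 1 of 5 tested fell in Stat6-/- cells (Pilrb1), against 2 of 6 in wild-type cells (Pilrb1 and Pilrb2), and 0 rose in either. The Pilrb1 calls were fixed by the choice of genes. The inhibitory receptor gene Pilra had differences of -0.36 in Stat6-/- cells and -0.65 in wild-type cells. Tyrobp was steady, with differences of 0.23 in Stat6-/- cells and 0.09 in wild-type cells. Of 15 other paired myeloid receptors with a signal, 0 changed with IL-4 in Stat6-/- cells, against 1 higher (Cd300ld) and 2 lower (Cd300a and Clec4n) in wild-type cells. Over all genes, 2.96% were higher and 6.78% lower in wild-type cells. The neutrophil granule gene Ngp, a marker of neutrophil precursors, was at 1.99 with IL-4 and 2.85 in medium in Stat6-/- cells and at 1.76 and 2.79 in wild-type cells. Both of its IL-4 signals were under the floor, its Stat6-/- difference of -0.86 was short of 2-fold, and its wild-type fold is at least 1.21-fold lower. Of 9 neutrophil markers 3 reached the floor on some array, with summed linear signals of 55.9 with IL-4 and 57.4 in medium in Stat6-/- cells, against 114.2 and 66.9 in wild-type cells. The wild-type sum with IL-4 is mostly Mmp8, also listed above as a metalloproteinase, which went the other way from Ngp in wild-type cells, at 6.39 with IL-4 and 5.01 in medium. Their part in the Pilrb1 result was not tested. Other neutrophil genes, Elane, Mpo, Camp, Ltf and Ly6g, were under the floor on the 4 arrays.

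**Figure D4:**
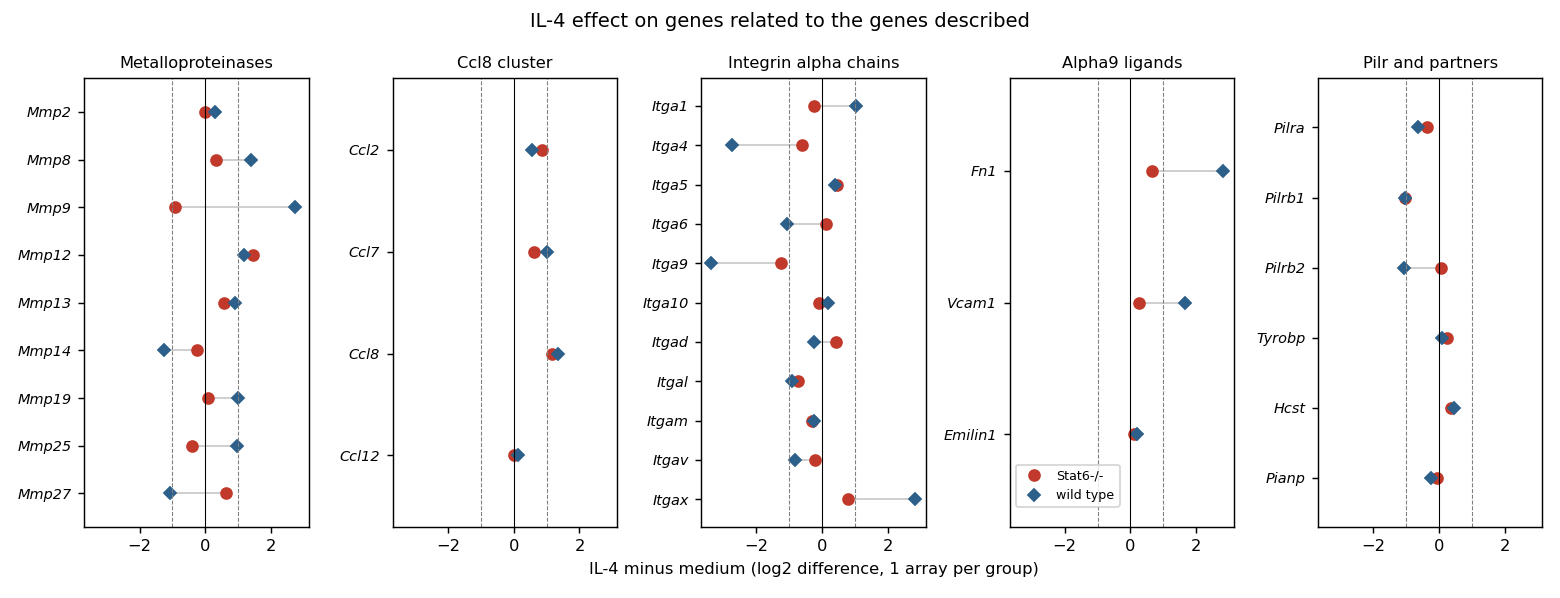
IL-4 minus medium as log2 differences (horizontal axis) for listed relatives of the genes with a signal above the floor, in Stat6-/- cells (red circles) and wild-type cells (blue diamonds), with dashed lines at 2-fold. Mmp12, Ccl8, Itga9 and Pilrb1 are the members of these groups with both symbols past the dashed lines on 1 side, as the choice of genes required. Mmp9 and Mmp27 are among the genes with symbols on opposite sides of 0.

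The difference of the IL-4 effects, Stat6-/- minus wild type, was -1.17 for Penk, 0.27 for Mmp12, -0.17 for Ccl8, 2.11 for Itga9, -0.51 for Tns1, 0.68 for Enpp4 and -0.01 for Pilrb1. These values are built from the same IL-4 differences that picked the genes and are a description only. They passed 2-fold for Itga9 (higher) and Penk (lower). Over all 10798 genes 5.77% were higher and 3.2% lower, and nothing is read from the members' count beside these shares. With signals raised to the floor these differences were -1.20 for Penk, 1.83 for Itga9 and 0.68 for Ccl8, so that Ccl8 changes sign.

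The genotype comparison was not used to pick the genes, though it is made on the same arrays. In medium, Penk had a difference of -3.47 and Mmp12 one of -3.15, 8.89-fold lower in Stat6-/- cells. Penk's medium signal in Stat6-/- cells was under the floor, so its fold is at least 10.9-fold lower. These were ranks 4 and 5 of 10299 genes by size. The remaining 5 genes did not pass, with Ccl8 at 0.96 (its wild-type signal was under the floor, and raised to it the difference was 0.11), Tns1 at 0.60, Enpp4 at 0.20, Itga9 at -0.07 and Pilrb1 at 0. Thus 2 of 7 were lower, against 118 genes or 1.15% of all, and 0 of 7 higher, against 0.301%. Quantile normalization applied again gave 71 lower and 42 higher genes in this comparison, in place of 118 and 31, and removing the intensity trend gave 78 and 38, or 77 and 39 with the length trend removed too.

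With IL-4, Penk had a genotype difference of -4.65 or 25.0-fold lower in Stat6-/- cells, and Mmp12 one of -2.88 or 7.36-fold lower. Itga9 was at least 3.40-fold higher in Stat6-/- cells, because its signal was under the floor in wild type with IL-4. The other differences were 0.88 for Enpp4, 0.79 for Ccl8, 0.08 for Tns1 and -0.01 for Pilrb1. So 2 of 7 were lower, against 4.83% of 10433 genes, and 1 of 7 higher, against 4.01%. Penk and Mmp12 were lower in Stat6-/- cells in both genotype comparisons. These share no array, but the IL-4 differences that picked the genes link them, so 1 is not an independent repeat of the other.

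**Figure D5:**
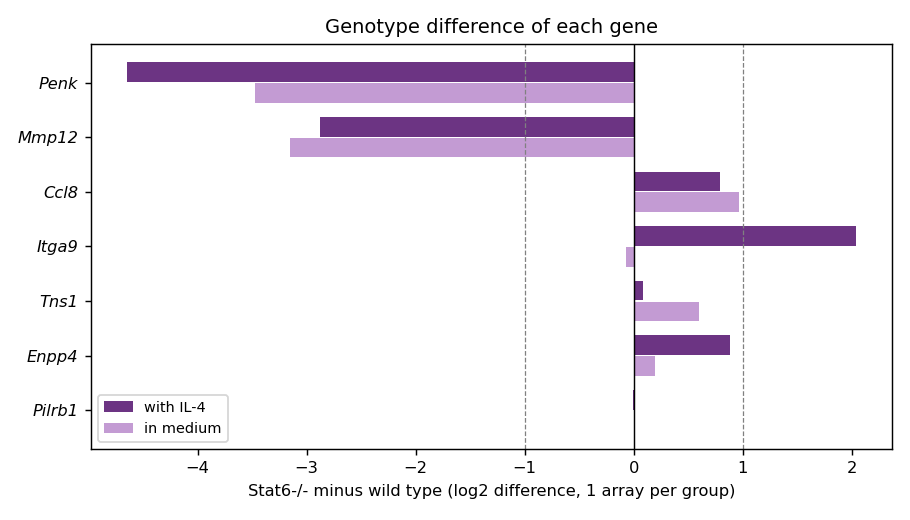
Stat6-/- minus wild type as log2 differences (horizontal axis) for each of the 7 genes with IL-4 (dark bars) and in medium (light bars), 1 array per group, with dashed lines at 2-fold. Penk and Mmp12 extend to -4.65 and -2.88 with IL-4, Itga9 reaches 2.04 with IL-4 alone, and Pilrb1 shows no bar.

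Genes with the most similar pattern were found by the distance between log2 signals over the 4 arrays, each gene centred on its own mean. For Penk these were the integrin gene Itgax (distance 0.66) and Fn1 (0.85). Itgax, which encodes the CD11c chain, had signals of 4.27 with IL-4 and 3.49 in medium in Stat6-/- cells and of 9.83 and 6.99 in wild-type cells. Fn1 had 3.70 and 3.03 in Stat6-/- cells and 9.52 and 6.72 in wild-type cells. Both therefore also lay lower on the Stat6-/- arrays. Their IL-4 differences in Stat6-/- cells were 0.78 and 0.67, short of 2-fold.

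For Mmp12 the nearest were Atp6v0d2, a proton pump subunit gene, and Vcam1, both at a distance of 1.22, so that no gene came as close to it as to the other 6. Atp6v0d2 had an IL-4 difference of 1.18 in Stat6-/- cells and 0.42 in wild-type cells. For Itga9 they were Pde3b, a phosphodiesterase gene (0.44), and Itga4, another integrin alpha chain (0.66). Itga4 had 7.85 with IL-4 and 8.44 in medium in Stat6-/- cells and 5.69 and 8.42 in wild-type cells, with the same low array as Itga9.

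For Ccl8 the nearest were 2 small noncoding RNA genes, Rny1 (0.59) and Snord33 (0.60). For Tns1 they were the phosphatase subunit gene Ppp2r3c (0.51) and Ro60 (0.55), whose protein binds Y RNAs such as Rny1. For Enpp4 they were the glycosyltransferase gene Mgat4a (0.21) and Glul, the glutamine synthetase gene (0.22), and for Pilrb1 Pcgf1, a Polycomb gene (0.12), and Ngp (0.19). Glul had 8.29 with IL-4 and 9.10 in medium in Stat6-/- cells and 7.23 and 9.16 in wild-type cells.

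The 3 genes past the same rule in both genotypes but outside the 7 were Atp5e and Atp5l, both subunits of the ATP synthase, and Snord33, a small nucleolar RNA. Atp5e had an IL-4 difference of 1.13 in Stat6-/- cells and 1.504 in wild-type cells, Atp5l of 1.05 and 1.36, and Snord33 of 1.06 and 1.46. Just inside the 2-fold line in Stat6-/- cells were Pilrb1 (-1.02) and Enpp4 (-1.05). Just outside it, among genes that passed in wild type, were Cx3cr1, the fractalkine receptor gene (-0.99), and Crip1 (0.97), followed by Nme2 (0.90), Ro60 (-0.89), Peg10 (0.89), Sec61b (0.88), Abcb1a (-0.87) and Mgat4a (-0.87). Cx3cr1 had signals of 4.31 with IL-4 and 5.30 in medium in Stat6-/- cells and of 4.03 and 5.84 in wild-type cells, so it differs little from Enpp4 in this respect. The 2-fold line does not mark a gap in these values.

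Gene length moved with the IL-4 difference in both genotypes. In the shortest 10% of genes, by RefSeq gene span in GRCm38.p6, the median IL-4 difference was 0.07 in Stat6-/- cells and 0.17 in wild-type cells. In the longest 10% it was -0.10 in Stat6-/- cells and -0.31 in wild-type cells. The genes that rose span 1.62 kb (Ccl8), 5.28 kb (Penk) and 16.1 kb (Mmp12), and those that fell span 6.29 kb (Pilrb1), 9.503 kb (Enpp4), 214.3 kb (Tns1) and 294.3 kb (Itga9), against a median of 21.1 kb for genes with a signal. With the length trend removed, an alternative chosen after seeing the data, 7 of 7 stayed past 2-fold in both genotypes. With the intensity trend removed as well, Tns1 and Pilrb1 were short of 2-fold in wild-type cells. Both alternatives use the IL-4 differences that picked the genes, and the part of gene length was not tested.

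The genes beside the 7 on the chromosome were also read. The 2 nearest protein-coding genes on each side that the array measures gave 28 neighbours, of which 9 had a signal. With IL-4, 0 of these 9 passed 2-fold in Stat6-/- cells, against 1, Pilrb2, in wild-type cells. Short of 2-fold, Mmp13 beside Mmp12 and Pilra beside Pilrb1 had differences of the same sign as that member in both genotypes. So did Supt3 near Enpp4, named after its values were seen, with -0.53 in Stat6-/- cells and -0.56 in wild-type cells. Bpnt2 near Penk went the other way from Penk in both, with -0.52 in Stat6-/- cells and -0.46 in wild-type cells. Dcun1d5, Golga4 and Pilrb2 differed in sign between the genotypes, and Ccl12 and Ctdspl were nearly level. The IL-4 receptor chain genes Il4ra and Il13ra1 had differences of -0.35 and -0.56 in Stat6-/- cells and fell by 1.57 and 1.36 in wild-type cells. Of 19 genes of IL-4 receptor signalling with a signal, 0 changed with IL-4 in Stat6-/- cells. In wild-type cells, where 6.78% of all genes fell, 3 fell, the third being Pik3r1, a phosphoinositide 3-kinase subunit gene.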

How the data were processed

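Gene expression was measured on 4 Affymetrix whole-transcript arrays, 1 per group. The authors deposited log2 signals, made with RMA in Affymetrix Expression Console per the submitters' processing notes. The sources used here give no version, setting or genome build. RMA draws low signals together, which understates differences of weak genes.

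The table held 35557 probesets, of which 21789 have 1 gene symbol in the platform annotation, for 19938 genes. For 999 genes with several, the probeset with the highest mean was used. Differences were called at 2-fold (log2 of 1) with the higher signal at or above the floor, the median of the single-symbol probesets. The calling step was checked on simulated shifts larger than 2-fold, in genes well above the floor. Calls near the 2-fold line or near the floor were not covered by that check. Computations used Python 3.11.15, pandas 2.3.3 and statsmodels 0.14.6 (lowess fraction 0.3).

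The members and gene lists were chosen with earlier results of these data known. The lists hold 259 entries, 241 of them measured by the array. Named were the members, other genes past the rule in both genotypes, the 4 nearest misses each way, the 2 nearest patterns per member, Stat6, and list genes with the largest changes or a direct relation to a member. The closing section gives 8 alternatives and 2 added later.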

Additional observations from a re-analysis of the deposited data

Results flagged for a closer look

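The metalloproteinase genes Mmp9 and Mmp27 moved in opposite directions with IL-4 in the 2 genotypes. Mmp9 had an IL-4 difference of -0.92 in Stat6-/- cells and 2.73 in wild-type cells. Mmp27, which lies in the same gene cluster as Mmp12, had one of 0.62 in Stat6-/- cells and -1.08 in wild-type cells, where its signal with IL-4 was under the floor. Each genotype has 1 pair of arrays, so the difference between the genotypes was not tested. In both genes the change in Stat6-/- cells was short of 2-fold. Other listed genes, such as Mmp25, Itga1 and Itga6, also differed in sign between the genotypes.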

How the results depend on the processing

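No paired analysis was possible because each group has 1 array, and no replicate could be left out. With a floor at the 75th percentile, 4 of the 7 genes stayed past the rule in both genotypes, in place of 7. Penk in Stat6-/- cells, Enpp4 in wild-type cells and Ccl8 in both genotypes no longer counted, as their signals were under that floor. With a 1.5-fold rule, the genes past it in the same direction in both genotypes numbered 183, in place of 10, and the members past it between genotypes were 4 in medium and 5 with IL-4, in place of 2 and 3. The other counts of members stayed within 1.5 times under the 10 alternatives run. Tns1 in wild type was short of 2-fold at -0.94 after quantile normalization applied again, and Pilrb1 there was at -0.83. With the intensity trend removed they were at -0.98 and -0.87 in wild type, and Pilrb1 was at -0.99 in Stat6-/- cells. With the length trend removed as well they were at -0.94 and -0.93 in wild type. The cause was not tested. Mmp12 and Itga9 kept their direction and stayed past 2-fold with IL-4 in both genotypes under each of the 10. With 1 array per group, signals near the floor (Ccl8 in wild type, Penk in Stat6-/- cells) give bounds only.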
